A study of Mus musculus with 93 samples.

Results

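The 9 complement genes of mouse liver described here were taken as the rows of the count table whose Ensembl identifiers map to Hc, C3, C4b, C2, C6, C8a, C8b, C9, and Cfb. They are 9 of 53465 genes in the table. All 9 passed the filter on low counts, which left 19110 genes to test, and the lowest count of any of the 9 in any mouse was 49. Liver RNA came from 93 male mice of 7 inbred strains, in 14 groups of 5 to 8 mice. The classical laboratory strains were C57BL/6J, DBA/2J, A/J, and 129S1/SvImJ, and the wild-derived strains were WSB/EiJ, CAST/EiJ, and PWK/PhJ. All mice were housed at thermoneutrality (TN, 30°C) from 6 wk of age, so no group lived at room temperature. From 7 wk of age they ate a control diet with 10% of its energy from fat (CD-TN) or a Western diet with 40% (WD-TN) for 17 wk, with liver taken at 24 wk following a fast of 4 h. The strains carry no transgene, the tissue is whole liver with all its cell types, and each mouse is 1 library.

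Complement is a cascade of plasma proteins, most of them made by hepatocytes, that marks microbes and damaged cells for removal. The classical and lectin routes cut C4 and C2, the alternative route uses factor B, and all 3 converge on C3. Cleavage of C3 leads to cleavage of C5, which releases the inflammatory peptide C5a, and C5b then gathers C6, C7, C8, and C9 into a pore called the membrane attack complex. In the mouse, C5 is encoded by Hc (hemolytic complement), and A/J and DBA/2J are known for a loss-of-function allele of it.

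That allele is known as a deletion of 2 bases in an early coding exon of Hc. The C57BL/6J reference sequence of the exon is shown because the strain groups in the Hc comparison were set by this allele. It is exon 6 of the 41 exons of an annotated coding transcript (GENCODE, GRCm38, chr2:35043188-35043270, minus strand, 83 bases, all coding), written 5′ to 3′ with the deleted TA in capitals.
Hc exon 6: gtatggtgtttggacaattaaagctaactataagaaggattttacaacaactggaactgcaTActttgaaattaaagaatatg
The capitals are bases 62 and 63 of the exon, at chr2:35043208-35043209. In the reference the reading frame runs for 1680 codons before its stop codon, and with the TA removed it runs for 216. The count table holds no bases, so which mice carried the deletion was not checked here.

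Promoter sequences are shown for Hc and for the genes of the membrane attack complex with the largest differences between strains or diets. They come from RefSeq (GRCm38.p6), in which 6 of the 9 genes had an entry, and they end where the gene begins in GENCODE. They were searched on both strands for TTGCNNAA, a C/EBP motif, GTTAAT, a partial HNF1 motif, TGTTTAC, a FOXA motif, CAAAGTCCA, an HNF4 motif, and TTCCNGGAA, a STAT motif. These factors are known regulators of liver genes, and capitals mark the matches.
Hc (chr2:35061439-35061662, minus strand): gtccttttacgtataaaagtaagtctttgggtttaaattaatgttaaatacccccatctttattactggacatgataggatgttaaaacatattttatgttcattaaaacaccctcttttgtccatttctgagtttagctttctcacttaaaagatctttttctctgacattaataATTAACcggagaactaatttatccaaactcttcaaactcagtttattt
C6 (chr15:4726960-4727174, plus strand): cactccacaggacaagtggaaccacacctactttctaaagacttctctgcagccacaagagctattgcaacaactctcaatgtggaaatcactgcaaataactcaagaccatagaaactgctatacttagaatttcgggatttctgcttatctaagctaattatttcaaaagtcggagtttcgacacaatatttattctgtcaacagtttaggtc
C8b (chr4:104766067-104766316, plus strand): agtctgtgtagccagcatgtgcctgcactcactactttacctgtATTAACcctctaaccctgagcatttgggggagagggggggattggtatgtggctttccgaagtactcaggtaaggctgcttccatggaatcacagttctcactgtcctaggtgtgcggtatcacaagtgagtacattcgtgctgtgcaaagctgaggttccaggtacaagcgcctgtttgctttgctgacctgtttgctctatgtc
C9 (chr15:6445096-6445326, plus strand): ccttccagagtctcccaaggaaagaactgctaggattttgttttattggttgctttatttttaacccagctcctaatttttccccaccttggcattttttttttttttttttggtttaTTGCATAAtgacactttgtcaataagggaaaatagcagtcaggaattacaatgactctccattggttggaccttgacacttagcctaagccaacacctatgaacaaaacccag
Hc held the partial HNF1 motif 48 to 43 bases before its start, on the opposite strand, and C8b held it from 206 bases before its start, also on the opposite strand. C9 held the C/EBP motif 113 to 106 bases before its start. None of the 5 motifs was in the C6 window. Of the 32851 RefSeq promoters of 300 bases, 10.8% held TTGCNNAA, 7.1% GTTAAT, 3.65% TGTTTAC, 0.475% CAAAGTCCA, and 1.15% TTCCNGGAA. The matches describe the reference letters and no binding was measured.

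The libraries held 40020424 to 49894856 reads on genes. Levels are given in CPM, a gene's reads scaled to library size, with TMM normalization, a scaling that corrects for differences in library composition. The hepatocyte markers summed to between 65140 and 218200 CPM in every mouse, with none of the 7 markers found in the table at 0. All reads were mapped to the C57BL/6J genome. The median share of unmapped reads was lowest in A/J (2.2%) and C57BL/6J (2.39%) and highest in CAST/EiJ (12.5%), so levels of the more distant strains may be read low, and this was not tested. In whole liver, a change in the share of hepatocytes cannot be told apart from a change in transcript per hepatocyte.

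A few mice stood apart from their groups. The WSB/EiJ mouse on WD-TN numbered 4 had the highest value of its group for all 14 acute phase transcripts, the plasma protein messages that rise in inflammation. Its Saa1, serum amyloid A, was at 10890 CPM against 46.4 to 305 in the other 5 mice of the group. The A/J mouse on WD-TN numbered 3 had the highest value of its 6 mice for all 9 complement genes, and the C57BL/6J mouse on CD-TN numbered 2 had the lowest of its 8 mice for 7 of the 9. In the latter, the summed cholangiocyte markers were 435 CPM against a group median of 54.4, and the stellate cell markers 904 CPM against 373. The WSB/EiJ mouse on CD-TN numbered 6 had the lowest of its 6 mice for 8 of the 9, and that on WD-TN numbered 5 for 7 of the 9. The RNA integrity number, a score of RNA quality, was 7.2 in the former, with 7 to 9.7 over all mice. No fit left out either of these 2 mice. Some results are given with and without the WSB/EiJ mouse numbered 4, the A/J mouse numbered 3, or the C57BL/6J mouse numbered 2.

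Per kilobase of exon not shared with another gene, the mean of the 14 group means was 1469 CPM for C3, 290 for C9, 271 for C4b, 266 for C8a, 158 for C6, 150 for C8b, 114 for Hc, 8.14 for C2, and 5.36 for Cfb. C3 stood highest of the 9 in all 7 strains on CD-TN, and C2 and Cfb were the 2 lowest. Cfb shares 79.5% of its exonic bases, and C2 42.8%, with the annotated read-through gene Gm20547 on the same strand. Gm20547 was in the table with no read in any of the 93 mice. The levels of Cfb and C2 may therefore be read low, which was not tested, and the values of Cfb rest on 49 to 226 reads per mouse. C4b has a closely related neighbor, C4a, with which reads can be exchanged, and it is described with C4b.

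**Figure D1:**
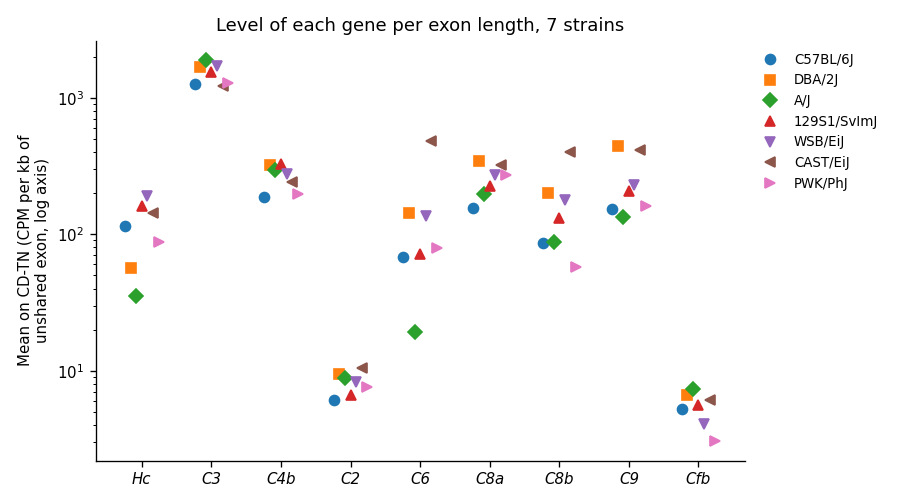
Mean level on CD-TN (CPM per kb of unshared exon, log axis) of the 9 complement genes, with 1 symbol for each of the 7 strains. C3 lies above all others, C2 and Cfb lie lowest, and the strains spread most for C6, where CAST/EiJ is highest and A/J lowest.

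On CD-TN the level of all 9 genes differed between strains by limma's moderated F test (the adjusted p of the 9 genes ran from 1.3e-35 to 2.8e-08), as did 93.7% of the genes tested. Of the 21 pairs of strains on CD-TN, 19 differed for Hc, 17 for C6 and for C8b, 16 for Cfb, 14 for C8a and for C9, 13 for C3 and for C2, and 11 for C4b. Over all genes, 48.3% of the pairs differed. Summed over the 9 genes, 134 of the pairs were called. The ratio of the highest to the lowest strain mean on CD-TN was 25.3 for C6, 6.96 for C8b, 5.41 for Hc, 3.29 for C9, 2.44 for Cfb, 2.2 for C8a, 1.75 for C4b, 1.71 for C2, and 1.56 for C3. By this ratio on CD-TN, the central component C3 varied least between strains and C6, a component of the pore, varied most. On WD-TN the ratio was 1.85 for C3, above C2 (1.63), C4b (1.68), and Cfb (1.75), and C6 again had the highest (49.3). The mice came in 7 cohorts, none of which held all 7 strains, so strain differences cannot be fully told apart from cohort differences.

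Hc is the gene of C5. On CD-TN its level was 865 to 1435 CPM in WSB/EiJ (median 1179), 871 to 1183 in 129S1/SvImJ (median 964), and 713 to 1132 in CAST/EiJ (median 874). It was 530 to 812 CPM in C57BL/6J (median 727) and 507 to 602 in PWK/PhJ (median 537). In DBA/2J it was 265.5 to 393 CPM (median 360), and in the 5 A/J mice 185, 241, 200, 227, and 237 CPM. A/J and DBA/2J lay below every other strain, and A/J lay below DBA/2J without overlap. On WD-TN the median was 1359 CPM in WSB/EiJ (897 to 2008), 934 in CAST/EiJ (732 to 1003), 847 in 129S1/SvImJ (758 to 964), and 731 in C57BL/6J (566 to 789). It was 653 in PWK/PhJ (541 to 701), 351.5 in DBA/2J (282 to 424), and 190 in A/J (144 to 235). The highest of the 24 A/J and DBA/2J mice on either diet had 424 CPM, and the lowest of the other 69 mice had 507 CPM.

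The mean of A/J and DBA/2J against the mean of the other 5 strains was −1.59 ± 0.07 on the log2 scale (SE) on CD-TN, 0.332 of the others' level, with an adjusted p of 1.2e-35 by limma-voom. On WD-TN it was −1.71 ± 0.06 (0.305 of the level, adjusted p = 6.9e-40). In this contrast 47.9% of all genes passed on CD-TN and 53.0% on WD-TN. Of the 9 complement genes, 6 passed on each diet. Beside Hc, C6 was lower in A/J and DBA/2J (−1.19 ± 0.14 on CD-TN, adjusted p = 2.5e-11, and −1.99 ± 0.13 on WD-TN, adjusted p = 2.4e-23). C3 (0.37 ± 0.07 on CD-TN, adjusted p = 5.9e-06), C4b (0.37 ± 0.09, adjusted p = 0.00035), and Cfb (0.60 ± 0.07, adjusted p = 8e-12) were higher there, and so they were on WD-TN. C2 was higher on CD-TN (0.26 ± 0.06, adjusted p = 0.00026) and not on WD-TN (0.05 ± 0.06, adjusted p = 0.5), and C9 was lower on WD-TN (−0.33 ± 0.10, adjusted p = 0.0051) and not on CD-TN (0.20 ± 0.11, adjusted p = 0.12). For C6 the 2 strains were not alike, because DBA/2J was the second highest strain on CD-TN and A/J the lowest. For C9 they were not alike either. On WD-TN the C9 mean was 1177 CPM in DBA/2J and 351 CPM in A/J, the lowest strain. The pair differed by 1.78 ± 0.18 log2 (limma-voom adjusted p = 1.1e-14). The Hc transcript thus remained measurable in both strains with the known allele, at 7016 to 20012 reads per mouse.

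In the order of Hc levels on CD-TN, WSB/EiJ and 129S1/SvImJ (difference 0.25 ± 0.12 log2, adjusted p = 0.071) and 129S1/SvImJ and CAST/EiJ (0.16 ± 0.11, adjusted p = 0.23) did not pass the test. Each further step did: CAST/EiJ over C57BL/6J (0.32 ± 0.11, adjusted p = 0.0083), C57BL/6J over PWK/PhJ (0.37 ± 0.11, adjusted p = 0.0036), PWK/PhJ over DBA/2J (0.65 ± 0.12, adjusted p = 1.3e-06), and DBA/2J over A/J (0.67 ± 0.12, adjusted p = 9.4e-07). On WD-TN the steps from CAST/EiJ to 129S1/SvImJ and from C57BL/6J to PWK/PhJ did not pass. Both strains with the known allele therefore differed from each other by about as much as DBA/2J differed from PWK/PhJ.

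**Figure D2:**
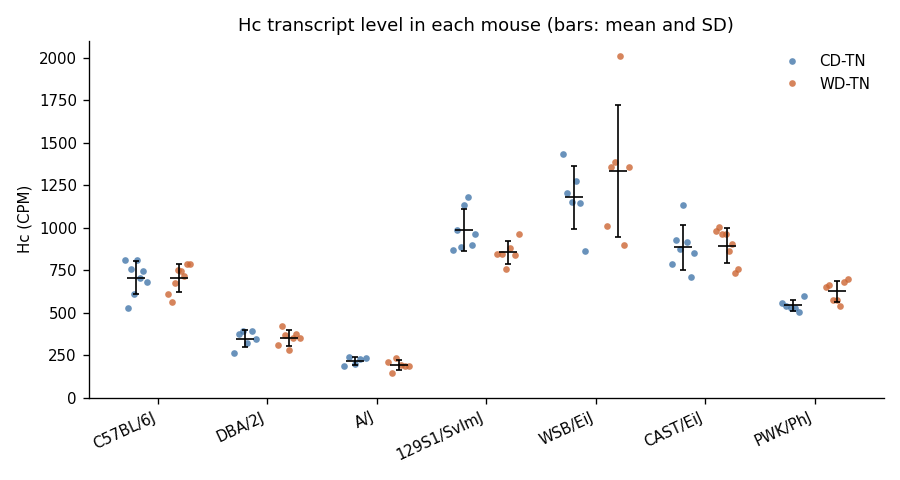
Hc level in each mouse (CPM, from 0) by strain and diet, with points for mice and black bars for the group mean and SD. All 24 A/J and DBA/2J mice lie at or below 424 CPM and all 69 others at or above 507 CPM, and the groups of the 2 diets overlap in every strain.

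Hc passed the diet test in no strain by limma-voom, with no unadjusted p below 0.077. It did pass in PWK/PhJ in a separate fit for that strain (0.21, adjusted p = 0.025) and in 129S1/SvImJ with sample quality weights (−0.22, adjusted p = 0.048). Its log2 fold change of WD-TN against CD-TN ran from −0.20 ± 0.12 in 129S1/SvImJ (adjusted p = 0.19) to 0.20 ± 0.11 in PWK/PhJ (adjusted p = 0.18). It was −0.00 ± 0.10 in C57BL/6J, with 2 SE on either side spanning −0.21 to 0.20. In WSB/EiJ it was 0.15 ± 0.12 with all mice and 0.02 ± 0.12 without the WD-TN mouse numbered 4. The test of equal diet effects in the 7 strains gave an adjusted p of 0.22. The 3 genes whose 14 group means followed those of Hc most closely were Cyp3a13, a cytochrome P450 (Pearson r = 0.949), Cep63, a centrosomal protein (r = 0.922), and Ahi1, a ciliary protein (r = 0.921). These r values are over 14 group means of log2 CPM, which share strains and reference genome, and describe likeness only.

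C3 is cut by all 3 routes and is the most abundant of the 9 transcripts. On CD-TN its median ran from 6188 CPM in CAST/EiJ (5359 to 8462) to 9857 in A/J, whose 5 mice had 10110, 9752, 9857, 8613, and 10530 CPM. Medians on CD-TN were 9027 in DBA/2J (6991 to 9685), 8454 in WSB/EiJ (8335 to 10070), 7839 in 129S1/SvImJ (7060 to 9537), 6893 in PWK/PhJ (5282 to 7172), and 6554 in C57BL/6J (5518 to 7384). Of the 6 steps in the order of the means, 1 passed the test, 129S1/SvImJ over PWK/PhJ (0.28 ± 0.11 log2, adjusted p = 0.032), which parts 4 strains with higher from 3 with lower means.

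WD-TN lowered C3 in C57BL/6J, where the 8 mice on WD-TN had 4513 to 6780 CPM (median 5235), by 0.27 ± 0.10 on the log2 scale (adjusted p = 0.033). The groups overlapped, with 5 of 8 WD-TN mice below all CD-TN mice. Without the CD-TN mouse numbered 2 the change was −0.24 with an adjusted p of 0.059, and the call was kept in 7 of the 13 settings tried. In A/J the 6 mice on WD-TN had 8054, 6407, 12210, 7627, 7280, and 8138 CPM. Of these, 5 lay below all A/J mice on CD-TN, and the mouse numbered 3 lay above all of them. The A/J change was −0.27 ± 0.12 (adjusted p = 0.16) with this mouse and −0.38 (adjusted p = 0.031) without it. Limma's F test of equal C3 diet effects in the 7 strains did not pass with this mouse (adjusted p = 0.15) and passed without it (0.048). In the other strains the log2 fold change of C3 was between −0.19 and 0.12 and did not pass. The 0.12 was that of WSB/EiJ and was −0.06 without the mouse numbered 4. With sample quality weights C3 passed in A/J (−0.31, adjusted p = 0.0095) and in PWK/PhJ (−0.21, adjusted p = 0.049).

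C4b encodes C4, the substrate of the classical and lectin routes. On CD-TN its median was 1081 CPM in C57BL/6J (653 to 1247), 1060 in PWK/PhJ (989 to 1305), 1256 in CAST/EiJ (1190 to 1941), 1513 in WSB/EiJ (1399 to 1899), 1834 in 129S1/SvImJ (1545 to 2362), and 1862 in DBA/2J (1454 to 2214). The 5 A/J mice had 1729, 1828, 1624, 1604, and 1662 CPM. No step between neighbors in the order of the means passed. In C57BL/6J, WD-TN mice had 945 to 1609 CPM (median 1351), a log2 fold change of 0.32 ± 0.13 whose adjusted p of 0.0502 missed the threshold, with 6 of 8 WD-TN mice above all CD-TN mice.

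That adjusted p moved when single mice were left out, also with a mouse of another strain. All groups share 1 estimate of the spread, and its part in this was not tested. Without the WSB/EiJ mouse numbered 4 the C57BL/6J change was the same size with an adjusted p of 0.012. The test of equal C4b diet effects between strains then also passed (adjusted p = 0.017, against 0.25 with all mice). Without the C57BL/6J mouse on CD-TN numbered 2 the change was 0.23 with an adjusted p of 0.16. C4a, the neighboring paralog, rose in C57BL/6J from a mean of 15.8 to 54.6 CPM (by 2.21 ± 0.30 on the log2 scale, adjusted p = 1.34e-08) and from 60.9 to 123.5 CPM in 129S1/SvImJ (0.97 ± 0.30, adjusted p = 0.00973). Its mean on CD-TN ran from 14.7 CPM in PWK/PhJ to 752 in DBA/2J, and how many reads the paralogs exchange was not tested.

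C2 is the protease that C4b carries, and Cfb is its counterpart in the alternative route. C2 was lowered by WD-TN in DBA/2J, from 16.3 to 22 CPM on CD-TN (median 19.4) to 14.6 to 16.5 CPM on WD-TN (median 15.4). The change was −0.32 ± 0.10 log2 (adjusted p = 0.016), 6 of 7 WD-TN mice were below all CD-TN mice, and the call held in all 13 settings tried. The other strains had C2 changes of −0.02 to 0.09, none of which passed. Cfb in A/J was at 3.98, 4.33, 4.24, 4.07, and 4.81 CPM on CD-TN and at 3.67, 3.17, 3.99, 3.24, 2.95, and 3.07 CPM on WD-TN. This was a change of −0.36 ± 0.12 (adjusted p = 0.039), with 5 of 6 WD-TN mice below all CD-TN mice. The Cfb call was lost when any 1 of the 5 A/J mice on CD-TN was left out (adjusted p from 0.055 to 0.13). Cfb was lowest in PWK/PhJ on both diets (means 1.75 and 2.02 CPM) and highest on CD-TN in A/J (4.28).

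**Figure D3:**
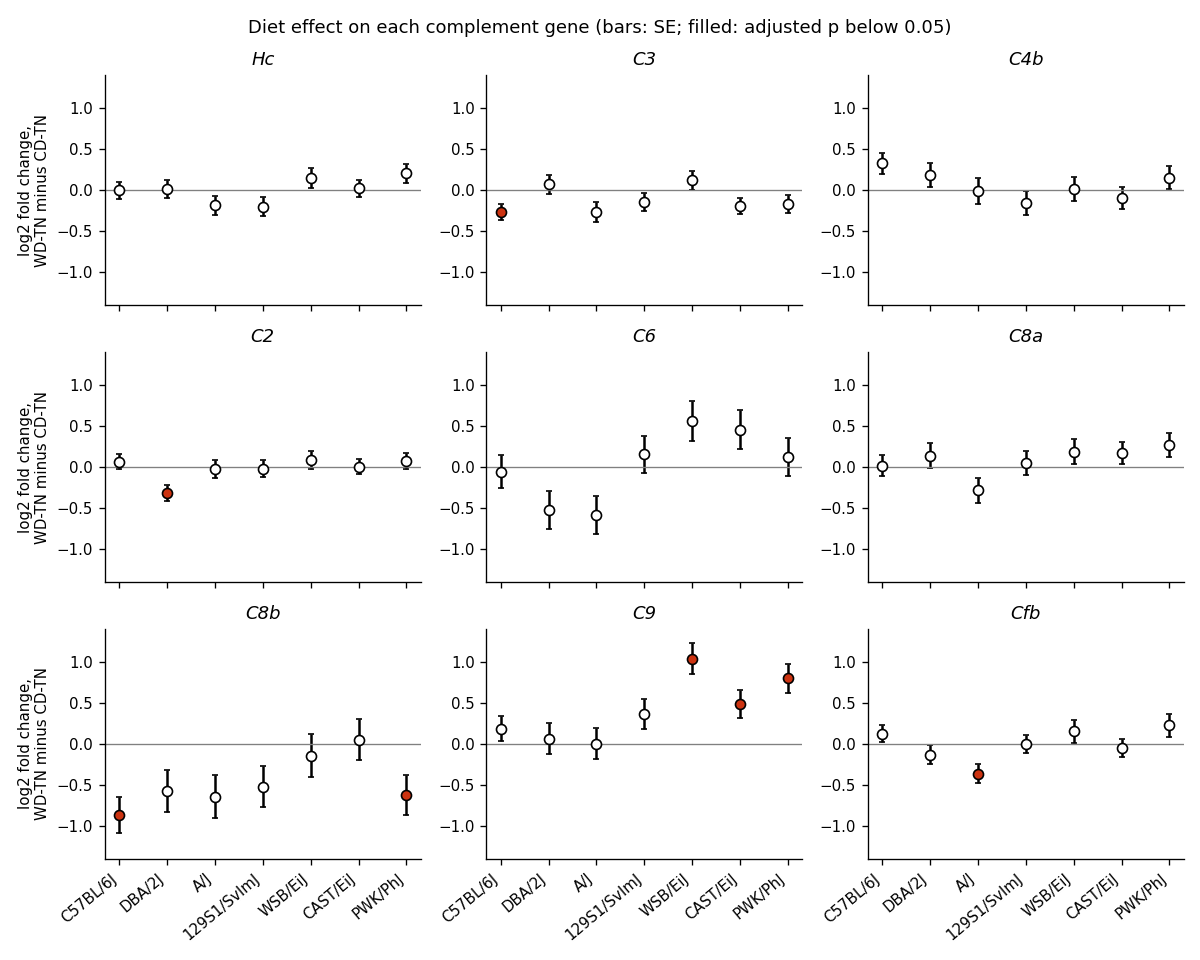
Log2 fold change of WD-TN against CD-TN in each strain for the 9 complement genes, with SE bars and filled points where the adjusted p was below 0.05. C9 is filled and above 0 in the 3 wild-derived strains and lies at 0.00 in A/J, and C8b lies below 0 in 6 of 7 strains. C6 lies below 0 in DBA/2J and A/J and above 0 in WSB/EiJ and CAST/EiJ. It lies nearer 0 in PWK/PhJ (0.12), 129S1/SvImJ (0.15), and C57BL/6J (−0.05).

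Of the 63 diet effects of 9 genes in 7 strains, 8 passed, 3 higher and 5 lower on WD-TN. In C57BL/6J 2 of 9 genes passed, where 26.2% of all genes tested did. The numbers were 1 of 9 in DBA/2J (18.0%), 1 in A/J (9.03%), 0 in 129S1/SvImJ (28.0%), 1 in WSB/EiJ (8.94%), 1 in CAST/EiJ (19.5%), and 2 in PWK/PhJ (29.6%). The share of the 9 genes was near or below the background in each strain. In 129S1/SvImJ, with no call by limma-voom, 2 genes had an unadjusted p below 0.05, C8b (0.041) and C9 (0.043). There edgeR and DESeq2 also called none, and the separate fit for that strain called 2. The median log2 fold change of the 9 genes was lowest in A/J (−0.27) and highest in PWK/PhJ (0.15), beside −0.00 and −0.01 over all genes tested. The summed hepatocyte markers were lower on WD-TN in every strain. Their median went from 128400 to 83720 CPM in C57BL/6J, from 204900 to 141400 in A/J, from 149200 to 92820 in WSB/EiJ, from 123700 to 78110 in CAST/EiJ, from 127600 to 79310 in PWK/PhJ, from 105700 to 87160 in 129S1/SvImJ, and from 124700 to 111600 in DBA/2J. The groups of both diets did not overlap in C57BL/6J, A/J, WSB/EiJ, CAST/EiJ, or PWK/PhJ. Taken singly, not all of the 7 markers passed. As lower on WD-TN, 5 passed in each of C57BL/6J, 129S1/SvImJ, and PWK/PhJ, 4 in A/J, 3 in each of DBA/2J and WSB/EiJ, and 1 in CAST/EiJ. None passed as higher. The part of this shift in the diet effects of the 9 genes was not tested.

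C9 is the protein that polymerizes to line the pore, and its transcript rose on WD-TN in the 3 wild-derived strains. In PWK/PhJ it went from 274 to 527 CPM on CD-TN (median 409.5) to 566.5 to 910 CPM on WD-TN (median 696.5), with no overlap between the groups. The change was 0.80 ± 0.18 log2, or 1.74-fold (adjusted p = 0.00021). In WSB/EiJ it went from 284 to 1177 CPM (median 493) to 710 to 1421 CPM (median 1067), or 2.05-fold (1.04 ± 0.19, adjusted p = 2.7e-05 by limma-voom). Only 2 of the 6 WSB/EiJ mice on WD-TN lay above the CD-TN mouse with 1177 CPM. In CAST/EiJ it went from 832 to 1373 CPM (median 1026) to 1088 to 1923 CPM (median 1548), or 1.4-fold (0.48 ± 0.17, adjusted p = 0.034), with 5 of 8 WD-TN mice above all on CD-TN.

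In the classical laboratory strains C9 did not pass. The 129S1/SvImJ mice had 376.5 to 746 CPM on CD-TN and 534 to 790 on WD-TN (0.36 ± 0.18, adjusted p = 0.12), and in a separate fit for this strain C9 passed (0.38, adjusted p = 0.025). The C57BL/6J mice had 206 to 487.5 and 362 to 498 CPM (0.19 ± 0.16), and the DBA/2J mice 848 to 1354 and 998 to 1433 CPM (0.07 ± 0.18). A/J mice had 404, 361, 299, 317, and 330 CPM on CD-TN and 234 to 512 CPM on WD-TN (0.00 ± 0.19). The C9 diet effect differed between the 7 strains (adjusted p = 0.0033). This F test was passed by 3 of the 9 genes, C9, C6, and Cfb (adjusted p = 0.035), and by 37.5% of the genes tested. The Cfb call was lost with edgeR (adjusted p = 0.084), sample quality weights (0.077), genes of any count (0.061), and without the A/J mouse on CD-TN numbered 2 (0.054) or 5 (0.079). The C6 call was lost with genes of any count (0.12). The mean C9 change of the wild-derived strains exceeded that of the classical laboratory strains by 0.62 ± 0.14 on the log2 scale (adjusted p = 0.0012), a contrast chosen after the values were seen and passed by 8.67% of all genes tested. It passed in all 11 other settings in which it was computed. The mice were raised in cohorts that each held both diets of a strain. Within cohorts the C9 difference was 0.80 and 0.78 in PWK/PhJ, 0.78 and 1.54 in WSB/EiJ, and 0.77, 0.41, and 0.24 in CAST/EiJ, where the first of the 3 rests on 1 CD-TN mouse. The 1.54 in WSB/EiJ rests on 2 mice on each diet, among them the CD-TN mouse numbered 6, the lowest of its group (284 CPM). With cohort as a covariate the CAST/EiJ change was 0.40 with an adjusted p of 0.069.

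C6 is the first protein to bind C5b, and it had the widest spread between strains. In CAST/EiJ it was at 1228 to 2297 CPM on CD-TN (median 1624) and 1628 to 3062 CPM on WD-TN (median 2461), above all 78 mice of the other strains, the highest of which had 804 CPM. In A/J the CD-TN mice had 74.4, 94.5, 43.3, 48.6, and 80 CPM and the WD-TN mice 40.3, 31.8, 83.7, 27.8, 29.9, and 75.7 CPM. DBA/2J had 459 to 565 CPM on CD-TN (median 502), WSB/EiJ 312 to 738.5 (median 454), PWK/PhJ 234 to 338 (median 276), 129S1/SvImJ 151.5 to 335 (median 253.5), and C57BL/6J 64 to 306 (median 271). On CD-TN the steps CAST/EiJ over DBA/2J (1.74 ± 0.24 log2, adjusted p = 3.3e-09), WSB/EiJ over PWK/PhJ (0.75 ± 0.24, adjusted p = 0.0066), and C57BL/6J over A/J (1.75 ± 0.23, adjusted p = 2.3e-10) passed, and the other 3 did not. CAST/EiJ and A/J stood at the ends of the order on both diets.

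The C6 response to WD-TN differed between strains (adjusted p = 0.015), although no single strain passed by limma-voom with all mice. Its log2 fold change was −0.58 ± 0.24 in A/J (adjusted p = 0.11) and −0.52 ± 0.24 in DBA/2J (adjusted p = 0.12), with DBA/2J mice on WD-TN at 281 to 494 CPM and 6 of 7 below all on CD-TN. It was 0.56 ± 0.25 in WSB/EiJ (adjusted p = 0.15; WD-TN mice 558.5 to 804 CPM) and 0.45 ± 0.24 in CAST/EiJ (adjusted p = 0.18). Without the A/J mouse on WD-TN numbered 3 the A/J change was −0.77 (adjusted p = 0.03), and with sample quality weights it was −0.69 (adjusted p = 0.0044). C6 also passed in DBA/2J in a separate fit (−0.53, adjusted p = 0.0017) and without the C57BL/6J mouse numbered 2 (−0.54, adjusted p = 0.049), and in CAST/EiJ with genes of any count (0.46, adjusted p = 0.0019). The mean C6 diet effect of the wild-derived strains exceeded that of the classical laboratory strains by 0.63 ± 0.18 (adjusted p = 0.015). Thus 2 of the 9 genes, C6 and C9, passed this contrast. The strains taken singly did not all follow this split. The C6 change was 0.12 ± 0.23 in PWK/PhJ, below 129S1/SvImJ (0.15 ± 0.23), and it was −0.05 ± 0.20 in C57BL/6J. With genes of any count the C6 contrast was 0.62 and did not pass (adjusted p = 0.098). The ratio of CAST/EiJ to A/J mean C6 was 49.3 on WD-TN.

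**Figure D4:**
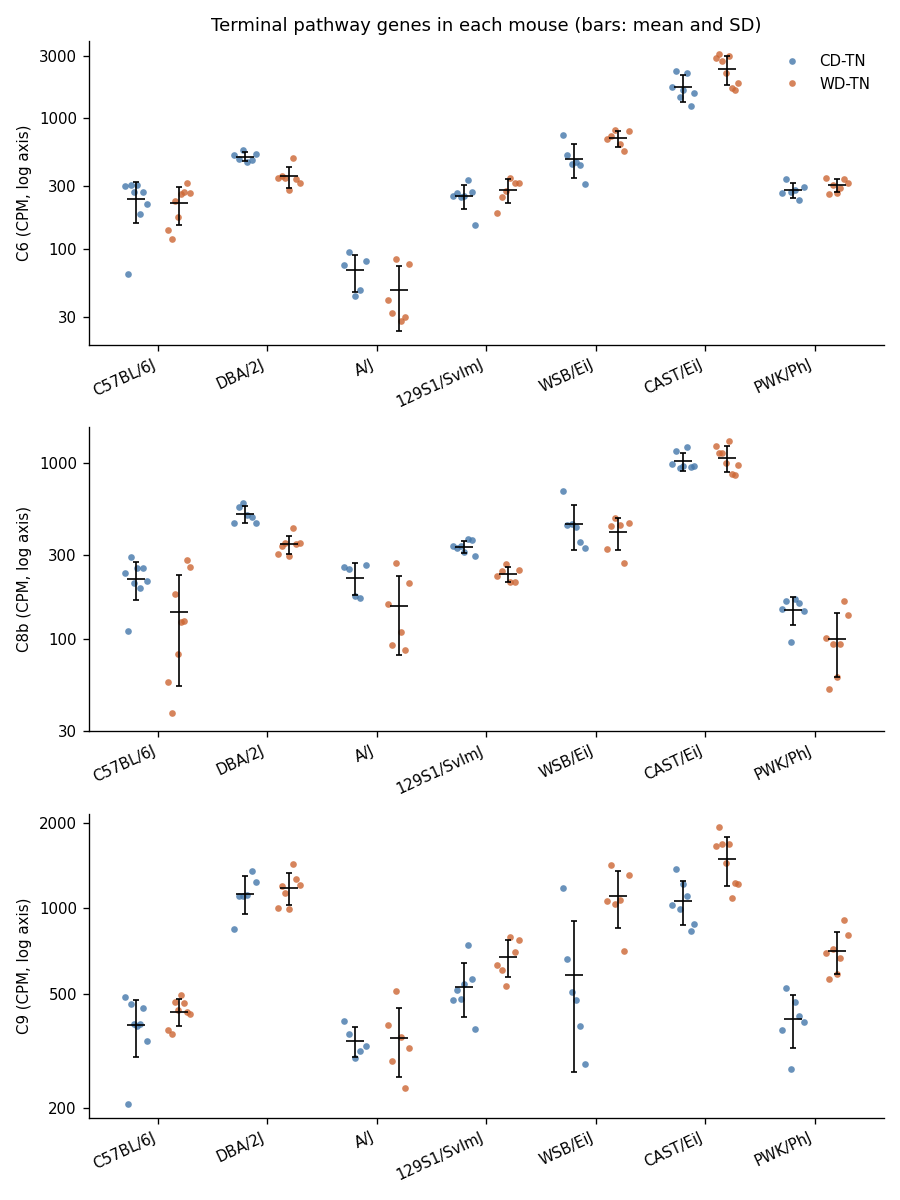
C6, C8b, and C9 levels in each mouse (CPM, log axes) by strain and diet, with points for mice and black bars for the group mean and SD. CAST/EiJ lies highest for C6 and C8b, C8b on WD-TN lies below CD-TN without overlap in DBA/2J and 129S1/SvImJ, and C9 on WD-TN lies above CD-TN without overlap in PWK/PhJ.

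C8a and C8b encode the α and β chains of C8, which inserts the growing complex into the membrane. The genes lie side by side on chromosome 4, C8b at chr4:104766317-104804548 and C8a at chr4:104815679-104876398 (GRCm38). By limma-voom with all mice, C8b passed the diet test in 2 strains and C8a in 0. Over the 14 group means of log2 CPM their Pearson r was 0.566. Whether the diet effects of these genes differed from each other was not tested. C8b fell on WD-TN in C57BL/6J, from 111 to 293 CPM on CD-TN (median 225) to 38.1 to 280 CPM on WD-TN (median 126), by 0.86 ± 0.22 on the log2 scale (adjusted p = 0.0016). It fell in PWK/PhJ, from 96.9 to 168 CPM (median 154) to 52.5 to 165 CPM (median 94.3), by 0.62 ± 0.24 (adjusted p = 0.041). In DBA/2J the CD-TN mice had 455 to 594 CPM and the WD-TN mice 297 to 425, and in 129S1/SvImJ 296 to 369.5 and 210 to 267.5 CPM. Both strains had no overlap between diets, yet their changes of −0.57 ± 0.26 and −0.52 ± 0.25 did not pass (adjusted p = 0.11 in each).

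The C8b calls differed between settings, and why they did was not tested. With a separate fit for each strain, DBA/2J (−0.58, adjusted p = 0.00026) and 129S1/SvImJ (−0.50, adjusted p = 2.4e-05) passed and C57BL/6J did not (adjusted p = 0.12). The C57BL/6J call held in 12 of 13 settings, also without the CD-TN mouse numbered 2. The C57BL/6J fall was −1.24 in 1 cohort and −0.10 in the other. The PWK/PhJ call was lost with edgeR (adjusted p = 0.073), DESeq2 (0.069), upper-quartile normalization (0.051), and genes of any count (0.16). In A/J, CD-TN mice had 257, 251, 176, 170, and 264 CPM and WD-TN mice 157.5, 92.2, 270, 110.5, 87.3, and 208 CPM, a change of −0.64 ± 0.26 (adjusted p = 0.12), or −0.83 (adjusted p = 0.042) without the mouse numbered 3. With sample quality weights C8b passed in A/J (−0.69, adjusted p = 0.011) and 129S1/SvImJ (−0.53, adjusted p = 0.017). Limma's F test of equal C8b diet effects did not pass (adjusted p = 0.22), but it did with sample quality weights (adjusted p = 0.024). WSB/EiJ (−0.14 ± 0.26) and CAST/EiJ (0.05 ± 0.25) had the values nearest 0.

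Between strains on CD-TN, C8b was highest in CAST/EiJ (933 to 1226 CPM, median 957.5), at 2.0 times DBA/2J on the fitted scale (1.00 ± 0.26 log2, adjusted p = 0.00088), and lowest in PWK/PhJ. All 15 CAST/EiJ mice lay above all 78 others. C8a was highest in DBA/2J (1162 to 1343 CPM, median 1227) and lowest in C57BL/6J (278 to 733 CPM, median 574). PWK/PhJ, the lowest strain for C8b, had 717 to 1209 CPM of C8a (median 1014). C8a passed the diet test in no strain by limma-voom and had no unadjusted p below 0.071, although with sample quality weights it passed in A/J (−0.33, adjusted p = 0.041). Without weights it had log2 fold changes from −0.28 ± 0.16 in A/J (adjusted p = 0.26) to 0.27 ± 0.15 in PWK/PhJ (adjusted p = 0.17).

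Over the 14 group means of log2 CPM, the pairs with the closest patterns were C8a and C9 (r = 0.857), C6 and C9 (0.826), C6 and C8b (0.767), and C3 and C4b (0.751). Hc had its closest pattern among the 9 with C6 (r = 0.674) and ran against Cfb (r = −0.38), C3 (−0.31), and C4b (−0.30). C6 and C9 lie on the same chromosome, 15, at chr15:4727175-4814967 and chr15:6445327-6498751. C4b, C2, and Cfb lie within 1 stretch of chromosome 17, from 34728380 to 34898265, where C3 lies apart at 57203970. These r values describe patterns over groups that share strains, libraries, and depth.

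The WSB/EiJ mouse on WD-TN numbered 4 marked which of the 9 genes moved with acute phase transcripts in 1 liver. Its summed acute phase transcripts were 98190 CPM against a group median of 29280. Its C4b was 3946 CPM against 1216 to 1461 in the other 5 mice (2.96 times their mean), its C3 was 17940 against 7790 to 9350 (2.12 times), and its Hc was 2008 against 897 to 1388 (1.67 times). C8a was 1.38 times the mean of the others, Cfb 1.28 times, and C2 1.27 times, each above every other mouse of the group. C8b (1.12 times), C9 (0.965 times), and C6 (0.878 times) lay within the range of the other 5. With 1 mouse these are values with no test. The WSB/EiJ call of C9 did not rest on this mouse, since without it the change was 1.04 ± 0.20 (adjusted p = 6.2e-05).

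**Figure D5:**
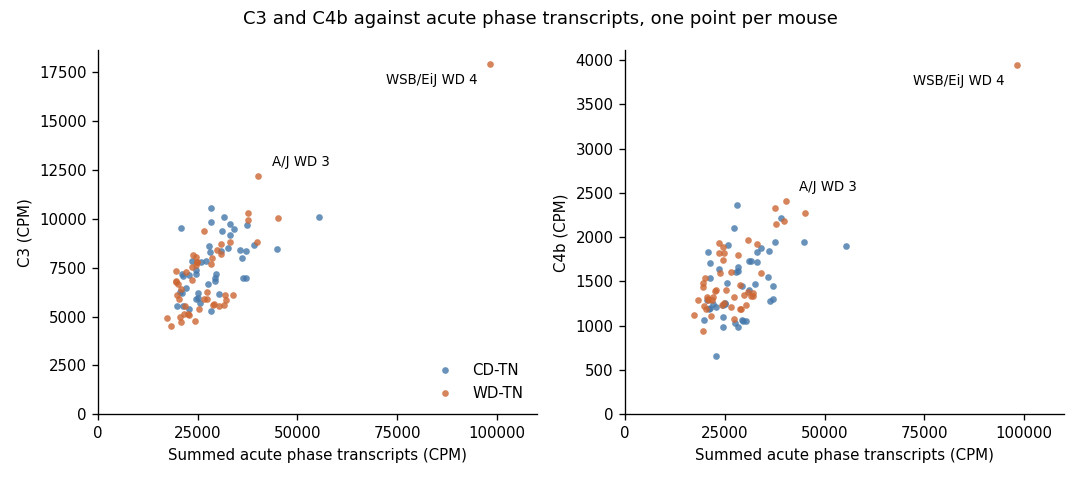
C3 (left) and C4b (right) level against the sum of 14 acute phase transcripts, all in CPM, with 1 point for each of 93 mice colored by diet. The WSB/EiJ mouse numbered 4 lies far to the right at 98190 CPM of acute phase transcripts, with 17940 CPM of C3 and 3946 CPM of C4b, and the A/J mouse numbered 3 lies at 40220 CPM.

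The other complement genes were taken from a list of 46, of which 45 were in the table and 43 were tested. WD-TN raised 15 and lowered 6 of the 43 in C57BL/6J (background 26.2%), raised 14 and lowered 7 in PWK/PhJ (29.6%), and raised 12 and lowered 4 in 129S1/SvImJ (28.0%). It raised 1 and lowered 4 in A/J (9.03%), raised 6 and lowered 2 in DBA/2J (18.0%), raised 4 and lowered 3 in WSB/EiJ (8.94%), and raised 3 and lowered 2 in CAST/EiJ (19.5%). The percentages are the shares of all genes tested that passed in either direction, and they also stand behind the receptor counts. Among the 8 receptors, which are carried by leukocytes, 7 rose in PWK/PhJ, 5 in C57BL/6J and in 129S1/SvImJ, 1 in each of A/J, DBA/2J, and WSB/EiJ, and 0 in CAST/EiJ, where limma-voom gave none of the 8 an unadjusted p below 0.19. C5ar1, the receptor of C5a, went from 1.27 to 3.51 CPM in PWK/PhJ (1.85 ± 0.32 log2, adjusted p = 4.15e-06), from 2.16 to 4.67 in C57BL/6J (1.25 ± 0.23, adjusted p = 1.91e-05), and from 1.18 to 2.22 in 129S1/SvImJ (0.88 ± 0.32, adjusted p = 0.0313). Itgax, the integrin subunit CD11c, rose in 129S1/SvImJ from 0.446 to 8.77 CPM (4.22 ± 0.51, adjusted p = 7.97e-10), and also in C57BL/6J (1.83 ± 0.28, adjusted p = 2.3e-07), WSB/EiJ (3.75 ± 0.75, adjusted p = 0.000219), PWK/PhJ (2.53 ± 0.42, adjusted p = 9.92e-07), and A/J (1.91 ± 0.53, adjusted p = 0.0122). The median sum of 9 Kupffer cell and macrophage markers was also higher on WD-TN in 6 of 7 strains. It went from 185 to 319 CPM in PWK/PhJ, from 271 to 447 in 129S1/SvImJ, from 489 to 624 in C57BL/6J, from 250 to 342 in WSB/EiJ, from 216 to 306 in CAST/EiJ, from 349 to 428 in A/J, and from 362 to 341 in DBA/2J. The sums of both diets overlapped in every strain but 129S1/SvImJ. Taken singly, 7 of the 9 markers passed as higher in 129S1/SvImJ, 6 in PWK/PhJ, 5 in C57BL/6J, 2 in CAST/EiJ, 1 in WSB/EiJ, and 0 in A/J and DBA/2J. The same shares of all genes stand behind these counts. None of these markers was at 0 in all mice of a group, and their part in the receptor values was not tested.

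Among the other terminal and regulatory genes, C8g, the γ chain of C8, fell in DBA/2J (by 0.37 ± 0.10 log2, adjusted p = 0.00621) and in PWK/PhJ (by 0.36 ± 0.10, adjusted p = 0.00554). C7, the partner of C6, was low throughout (group means of 0.79 to 10.5 CPM) and rose in PWK/PhJ from 3.65 to 10.5 CPM (1.53 ± 0.18, adjusted p = 5.66e-11). In the same strain the summed stellate cell markers were 140 to 232 CPM on CD-TN and 312 to 631 on WD-TN, and the summed cholangiocyte markers 64.5 to 140 and 159 to 525 CPM. Neither set overlapped between diets, none of these markers was at 0 in all mice of a group, and their part in the C7 value was not tested. Cfi, the protease that inactivates C3b and C4b, fell in C57BL/6J (by 0.34 ± 0.07, adjusted p = 6.98e-05), A/J (by 0.28 ± 0.08, adjusted p = 0.0197), WSB/EiJ (by 0.28 ± 0.08, adjusted p = 0.0171), and CAST/EiJ (by 0.27 ± 0.07, adjusted p = 0.00376). The most changed of the other genes included Cfd, factor D, known from fat tissue, in C57BL/6J (2.71 to 53.7 CPM, 5.05 ± 0.74, adjusted p = 1.08e-07, 4 of 8 WD-TN mice above all CD-TN mice) as well as DBA/2J (0.103 to 2.92 CPM, 5.34 ± 1.84, adjusted p = 0.0311). Cr2, a complement receptor of B cells, rose in PWK/PhJ (2.05 ± 0.28, adjusted p = 9.1e-09) and DBA/2J (1.23 ± 0.25, adjusted p = 0.00017). Mbl2, a lectin that starts the lectin route, fell in WSB/EiJ (by 0.49 ± 0.14, adjusted p = 0.019) and PWK/PhJ (by 0.60 ± 0.14, adjusted p = 0.000522) and rose in DBA/2J (0.56 ± 0.14, adjusted p = 0.00253). Cfhr2, a factor H-related protein, fell in A/J (by 0.49 ± 0.09, adjusted p = 6.3e-05) with no overlap between diets, and also in PWK/PhJ, C57BL/6J, and 129S1/SvImJ. Cpn1, a subunit of the carboxypeptidase that inactivates C3a and C5a, fell in 6 of 7 strains, among them CAST/EiJ (by 0.31 ± 0.06, adjusted p = 3.3e-05) and PWK/PhJ (by 0.51 ± 0.07, adjusted p = 1.81e-09), and did not pass in 129S1/SvImJ (−0.16 ± 0.07, adjusted p = 0.0592). C1s2, a C1s protease gene, rose in CAST/EiJ (0.33 ± 0.06, adjusted p = 3.9e-05). Its mean on CD-TN was 0.0901 CPM in C57BL/6J and 0.0743 in 129S1/SvImJ against 39.4 to 108 CPM in the other 5 strains. In 129S1/SvImJ, Itgb2, the partner chain of Itgax, rose from 6.83 to 21.3 CPM (1.62 ± 0.23, adjusted p = 4e-08).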

How the data were processed

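Liver RNA libraries were made with the SMARTER kit, sequenced on the BGISEQ-500, and mapped to the C57BL/6J genome (GRCm38/mm10, STAR 2.7.1a per the labels) by the authors, who deposited raw counts of reads per gene. The annotation release and the strand setting are not given in the sources used here. Symbols, positions, and exon overlaps came from GENCODE vM21. The 4 summary lines of unplaced reads (unmapped 1.66 to 14.8%, multimapping 8.03 to 12.2%, outside genes 3.82 to 5.54%, ambiguous 3.69 to 5.67%) were kept out of library sizes. Gene counts summed to 40020424 to 49894856 in the libraries, so counting error matters only for low genes.

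Counts were filtered with filterByExpr (minimum count 10), scaled by TMM, and fitted with limma-voom (limma 3.58.1, edgeR 4.0.16, R 4.3.3) as 14 group means. Tests were two-sided, p-values were adjusted by Benjamini-Hochberg over all genes tested (and over the 21 pairs together), and the threshold was 0.05. All adjusted p-values come from these fits, or from DESeq2 1.42.0 where named. SE values are limma's. The alternatives were edgeR's quasi-likelihood test, DESeq2, upper-quartile normalization, 2 other filters, cohort as a covariate, sample quality weights, separate fits, and mice left out. The pipeline was tested on simulated data. No 2 mice of a group agreed within sampling noise.

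The genes and the lists were chosen with earlier results of these data known. Named were the 9 genes, the 2 other complement genes with the largest called change in each strain, and the 3 genes most correlated with Hc. C7, C8g, Cfi, and C5ar1, and further strains of the named genes, were added after their values were seen. Pearson r used log2 CPM with a prior count of 2.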

Additional observations from a re-analysis of the deposited data

Results flagged for a closer look

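Of 126 groups of 5 to 8 mice (9 genes, 14 groups), 11 held a mouse set apart from the rest by Dixon's test, which chance gives in about 1 of 20 groups. High values were C3 in the A/J mouse on WD-TN numbered 3 (12210 CPM), C3 and C4b in the WSB/EiJ mouse on WD-TN numbered 4 (17940 and 3946 CPM), C3 and C4b in the CAST/EiJ mouse on CD-TN numbered 4 (8462 and 1941 CPM), C6 in the DBA/2J mouse on WD-TN numbered 5 (494.4 CPM), C8a in the 129S1/SvImJ mouse on CD-TN numbered 5 (986 CPM), and C8b in the WSB/EiJ mouse on CD-TN numbered 1 (688.6 CPM). Low values were C4b and C8a in the C57BL/6J mouse on CD-TN numbered 2 (652.8 and 278.1 CPM) and C8b in the PWK/PhJ mouse on CD-TN numbered 3 (96.91 CPM).

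The diet effect differed between strains by limma's F test for C9 (adjusted p = 0.0033), C6 (adjusted p = 0.015), and Cfb (adjusted p = 0.035). Between the means of wild-derived and classical laboratory strains, a contrast chosen after the values were seen, it differed by 0.618 on the log2 scale for C9 and by 0.629 for C6. For C6, PWK/PhJ (0.12) lay below 129S1/SvImJ (0.15).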

How the results depend on the processing

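No paired analysis was possible because the labels give each mouse an identifier and a cohort but no number that pairs mice across diets or strains. Cohort was used as a covariate instead.

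Hc in A/J and DBA/2J against the other 5 strains, the C9 contrast of wild-derived against classical laboratory strains (0.569 to 0.648), the 9 genes that differed between strains on CD-TN, and the number of strain pairs called (128 to 137) kept their direction and call under each alternative run on them. The C9 contrast was chosen after the values were seen, and the alternatives reused the same mice. The cohort covariate was fitted within each strain, so it cannot tell strain from cohort in the comparisons of strain levels. These are the Hc comparison, the 9 genes, and the strain pairs. With and without it, the Hc difference was −1.593 on CD-TN and −1.712 on WD-TN. WSB/EiJ shared no cohort with another strain. None of the 8 called diet effects changed sign. Of the 63 diet effects, 8 passed in the fit reported above, 5 by edgeR, 6 by DESeq2, 6 under upper-quartile normalization, 7 with genes of any count and with cohort as a covariate, 9 with at least 10 counts in every mouse, 11 with a separate fit for each strain, and 15 with sample quality weights. C2 in DBA/2J and C9 in WSB/EiJ and PWK/PhJ passed in all 13 settings, and C8b in C57BL/6J and C9 in CAST/EiJ in 12 of 13.

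By strain, A/J had 0 calls with edgeR, upper-quartile normalization, or genes of any count and 5 with quality weights. Leaving out 1 A/J mouse gave 0 to 4 calls, 0 for each of the 5 mice on CD-TN and 4 without the mouse on WD-TN numbered 3. C57BL/6J had 0 calls in the separate fit and 1 with edgeR, DESeq2, or genes of any count, and 1 to 3 when a single mouse was left out (1 without its CD-TN mouse numbered 2). DBA/2J had 3 calls in the separate fit, 2 with genes of any count, and 1 to 2 when a single mouse was left out. 129S1/SvImJ had 2 calls in the separate fit and with quality weights, CAST/EiJ 0 with cohort as a covariate and 2 with genes of any count, and PWK/PhJ 1 with edgeR, DESeq2, upper-quartile normalization, or genes of any count. The diet effect differed between strains for 1 gene, C9, with genes of any count. Why these counts moved was not tested. The mice left out other than the 5 A/J mice on CD-TN were chosen after seeing the data.

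Of the other effects, 13 took the other sign in 41 values of at most 0.242 in size on the log2 scale, none with an adjusted p under 0.25. C2 in 129S1/SvImJ was 0.00025 in the separate fit, 0.041 with upper-quartile normalization, and 0.010 with the stricter filter of at least 10 counts per mouse. C2 in A/J was 0.033 with DESeq2, 0.021 with edgeR, and 0.0038 with upper-quartile normalization, and C2 in CAST/EiJ was −0.035 with cohort, −0.013 with DESeq2, and −0.0035 with edgeR. C4b in A/J was 0.00027 with the stricter count filter, 0.027 with DESeq2, 0.015 with edgeR, and 0.013 with upper-quartile normalization. With quality weights C4b in WSB/EiJ was −0.135 and C8a in C57BL/6J −0.116, and C8a in C57BL/6J was −0.0026 with edgeR. C6 in C57BL/6J was 0.082 with cohort, and C9 in A/J was −0.099 with cohort and −0.00068 with genes of any count. Cfb in 129S1/SvImJ was 0.019 in the separate fit, 0.029 with the stricter count filter, 0.0090 with DESeq2, 0.00056 with genes of any count, 0.061 with upper-quartile normalization, and 0.025 with quality weights. Hc in C57BL/6J was 0.0065 with the stricter count filter, 0.027 with cohort, 0.0075 with DESeq2, and 0.0094 with genes of any count, and Hc in CAST/EiJ was −0.0086 with cohort. When a single mouse was left out, C2 in A/J ran from −0.153 to 0.0020, C4b in A/J from −0.122 to 0.020, C9 in A/J from −0.114 to 0.074, C3 in WSB/EiJ from −0.059 to 0.120, C4b in WSB/EiJ from −0.242 to 0.017, C8a in C57BL/6J from −0.119 to 0.013, and Hc in DBA/2J from −0.0031 to 0.011.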
